A study of Mus musculus with 18 samples.

Results

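The transcripts of the glycine receptor and of glycine transport were followed in mouse dorsal horn (DHSC, the part of the spinal cord that receives sensory input) after a painful stimulus. The 7 genes were taken by symbol from the 55573 genes of the count table: Glra1, Glra2 and Glra3, which encode alpha subunits of the receptor, Glrb, which encodes its beta subunit, Gphn, which encodes the scaffold gephyrin, and Slc6a5 and Slc6a9, which encode the glycine transporters GlyT2 and GlyT1. All 7 passed the filter on low counts in every comparison. The tissue was the ipsilateral dorsal horn of lumbar segments, taken 2 h after 2% formalin (8 µl per 20 g of body weight) had been injected into the left hind paw of C57BL/6J mice aged 8 to 12 weeks. The groups were 6 samples of F1/proestrus females, in which the quiet interphase between the 2 phases of pain behavior was short, 6 of F2/metestrus females, in which it was long, and 6 of males. The animals of all 18 samples had received formalin, so no value here describes the effect of formalin itself, and the behavior type and estrous stage of a female cannot be told apart. The estrous stage was read from vaginal smears.

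Glycine is, with GABA, the fast inhibitory transmitter of the spinal cord. It opens a chloride channel built of alpha and beta subunits, and the beta subunit ties the channel to gephyrin beneath the synapse. GlyT2 refills the terminals of glycinergic neurons, whereas GlyT1, found mostly on astrocytes, clears glycine from the synapse. In the superficial dorsal horn, prostaglandin E2 released during inflammation acts through protein kinase A to inhibit receptors that hold the alpha3 subunit, which is why these genes are of interest in inflammatory pain.

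The samples were sequenced to 73590509 to 125724156 counted reads. By the numbers in their names the libraries fall into a first and a second series, each with 3 libraries of every group (replicates 1 to 3 and 4 to 6). What separates the series is not given in the sources used here. In the F1/proestrus library 5, the summed level of 6 markers of sensory ganglion neurons was 409.5 CPM (counts scaled to the library total), against 1.25 to 2.63 CPM in the others. Without this library none of the 7 genes was called between the groups and the same 4 were called between the library series, as described below. Markers of excitatory dorsal horn neurons were present throughout (337.5 to 419.6 CPM summed over 6 genes). Those of motor neurons, which lie in the ventral horn, ranged from 22.9 to 321.4 CPM summed over 6 genes. The 321.4 CPM was again in the F1/proestrus library 5, where Prph alone gave 203.0 CPM. Chat, of the same list, was at most 28.4 CPM in any library. The next highest library in the sum was at 190.8 CPM.

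On mouse build GRCm38, Glra1 lies on chromosome 11 (55514238 to 55608198, minus strand), Glra2 on chromosome X (165129017 to 165327393, minus strand) and Glra3 on chromosome 8 (55940460 to 56130070, plus strand). Glrb is on chromosome 3 (80843599 to 80913660, minus strand) and Gphn on chromosome 12 (78226379 to 78684772, plus strand). Slc6a5 is on chromosome 7 (49910146 to 49963856, plus strand) and Slc6a9 on chromosome 4 (117834506 to 117875198, plus strand). Part of the exons overlap genes on the other strand, and whether the counting used the strand is not given in the sources used here. Ccdc24 covers 27.8% of the exon bases of Slc6a9 and Gm17114 covers 9.94%, while the antisense gene Gm12236 covers 5.84% of those of Glra1. Gm48226 covers 3.92% of those of Gphn. The levels of Slc6a9 and, to a lesser extent, Glra1 are therefore uncertain by the reads of these neighbours.

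RefSeq promoter windows of 300 bases (GRCm38.p6) were matched for 6 of the 7 genes, 9 windows in all. Those of Slc6a5, Glra3 and Gphn are shown because these genes differed between the library series described below. Glra1, which differed most of the 7 between the series, is the gene with no matched window. Slc6a5 has 2 windows, of which the upstream one is printed. Capitals mark matches on either strand to 4 motifs. They are the GC box with the letters GGGCGG, the core promoter motif TATAAA, the cAMP response element TGACGTCA, and the AP-1 site, written TGAGTCA.
Slc6a5, chr7:49910049-49910348, plus strand: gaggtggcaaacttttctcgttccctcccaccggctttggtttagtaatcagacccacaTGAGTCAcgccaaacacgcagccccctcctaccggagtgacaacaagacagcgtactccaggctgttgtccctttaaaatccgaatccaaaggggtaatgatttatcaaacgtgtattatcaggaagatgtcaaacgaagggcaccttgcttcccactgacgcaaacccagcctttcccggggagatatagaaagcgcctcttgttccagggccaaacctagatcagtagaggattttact
Glra3, chr8:55940168-55940467, plus strand: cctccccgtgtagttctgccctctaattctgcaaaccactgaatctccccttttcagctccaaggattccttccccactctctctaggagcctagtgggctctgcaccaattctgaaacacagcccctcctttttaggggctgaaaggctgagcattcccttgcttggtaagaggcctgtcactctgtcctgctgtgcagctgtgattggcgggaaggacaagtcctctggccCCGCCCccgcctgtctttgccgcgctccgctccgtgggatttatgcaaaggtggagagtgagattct
Gphn, chr12:78226405-78226704, plus strand: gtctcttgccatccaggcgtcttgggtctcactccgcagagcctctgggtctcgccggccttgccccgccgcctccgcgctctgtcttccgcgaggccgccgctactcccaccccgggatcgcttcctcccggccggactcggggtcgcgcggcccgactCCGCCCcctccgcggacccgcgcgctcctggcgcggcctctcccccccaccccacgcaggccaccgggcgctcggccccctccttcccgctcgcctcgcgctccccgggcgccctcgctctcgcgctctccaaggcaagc
The other Slc6a5 window, at chr7:49911450-49911749, has no match to any of the 4 motifs. The printed one holds 1 AP-1 match, a pattern found in 5.2% of 32851 windows. The Glra3 and Gphn windows each hold 1 GC box, found in 35.7%. No cAMP response element was matched in the 9 windows, against 1.79% of all windows.

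Per length, in TPM (counts scaled by exon length and by the total of the library), Glrb was the highest of the genes at 216 ± 24.8 TPM (SD, n = 18), followed by Slc6a9 at 199 ± 14.01 and Slc6a5 at 132 ± 26.6. Gphn stood at 55.2 ± 4.26 TPM and Glra1 at 46.1 ± 16.6 TPM. Glra2 had 12.4 ± 1.34 TPM and Glra3 5.17 ± 1.04 TPM, the lowest. Glrb exceeded Slc6a9 in 13 of 18 libraries, and Gphn exceeded Glra1 in 13 of 18, so the order within these 2 pairs was not the same in every library. Every other neighbour in the order kept its place in 18 of 18 libraries.

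Glra1 made up 70.9% ± 6.66 (SD, n = 18) of the summed TPM of the 3 alpha subunits, Glra2 20.7% ± 5.35 and Glra3 8.42% ± 1.56. The order of the last 2 rests on the division by exon length, since in CPM the shares were 20.6% for Glra2 and 24.6% for Glra3, whose exons are the longest. The Glra1 share ran from 66.0% to 76.0% (median 73.8%) in F1/proestrus, from 64.3% to 81.1% (median 70.9%) in F2/metestrus and from 55.6% to 76.5% (median 69.2%) in males. The 3 ranges overlapped. The beta subunit was 3.61 ± 0.882 times the sum of the alpha subunits, and Slc6a9 was 1.57 ± 0.308 times Slc6a5.

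**Figure D1:**
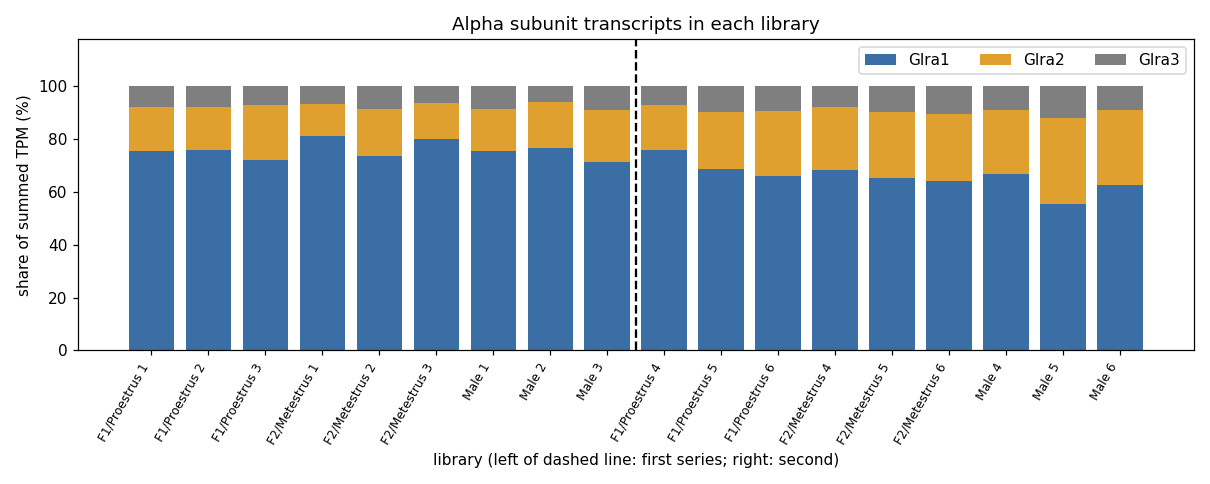
Share of the summed TPM of Glra1, Glra2 and Glra3 (vertical axis, percent) in each of the 18 libraries, the first library series left of the dashed line and the second right of it. Glra1 takes the greatest share in every library, from 55.6% to 81.1%.

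The 7 genes also varied to different degrees between libraries. The SD was 34.3% of the mean CPM for Glra1, 18.5% for Slc6a5 and 18.3% for Glra3, over 18 libraries. It was 10.4% for Glrb and 10.1% for Glra2, and smallest for Slc6a9 (7.04%) and Gphn (5.97%). The highest library exceeded the lowest by 3.29 times for Glra1 and by 1.20 times for Gphn. The scaffold gene thus moved least and the main alpha subunit most.

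The first comparison asked whether the females with a long interphase differed from those with a short one. None of the 7 genes passed the FDR of 5% between F2/metestrus and F1/proestrus, where 0% of all genes tested passed (edgeR quasi-likelihood test, 0 of 24042 genes, 596 at an unadjusted p under 0.05). DESeq2 called 2 genes of the whole table and none of these 7. Glra1, the main alpha subunit of the adult cord, ran from 25.2 to 54.9 CPM (median 36.0) in F1/proestrus and from 23.8 to 61.0 CPM (median 36.9) in F2/metestrus. The groups overlapped almost fully, with a log2 fold change of 0.06 (95% interval -0.45 to 0.57). This fit held no term for the library series. With the series as a term the log2 fold change of Glra1 was 0.01, and its SE was 0.135 in place of 0.239.

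Slc6a5 ran from 236.5 to 372.1 CPM (median 314.6) in F1/proestrus and from 285.5 to 406.8 CPM (median 332.8) in F2/metestrus. Its log2 fold change of 0.11 (95% interval -0.12 to 0.35) was the greatest of the 7 in size. With the library series as a term it was 0.12 (SE 0.0654, edgeR adjusted p = 0.9999). Glra3, the subunit on which prostaglandin signaling acts, ran from 12.5 to 21.5 CPM (median 14.2) and from 12.996 to 19.5 CPM (median 15.1), a log2 fold change of 0.03 (-0.26 to 0.33). Without the F1/proestrus library 5 the values of Glra1, Glra2 and Glra3 turned to -0.03, -0.05 and 0.00.

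Gphn ran from 64.2 to 74.7 CPM (median 72.6) in F1/proestrus and from 63.97 to 72.1 CPM (median 68.4) in F2/metestrus. Slc6a9 ran from 295.6 to 357.2 CPM (median 345.9) and from 324.6 to 383.4 CPM (median 354.9). Glra2, the subunit best known from the immature cord, ran from 10.2 to 15.3 CPM (median 12.9) and from 11.005 to 14.2 CPM (median 12.8). In all 3 the groups overlapped. Log2 fold changes were -0.06 for Gphn (95% interval -0.17 to 0.06), 0.05 for Slc6a9 (-0.07 to 0.17), 0.05 for Glrb (-0.11 to 0.20) and 0.00 for Glra2 (-0.20 to 0.21). In exact two-sided permutation tests on CPM, p ranged from 0.275 (Gphn) to 0.959 (Glra2), all with an adjusted p of at least 0.682 over 14 tests.

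The second comparison set males against all 12 females. Again none of the 7 passed the FDR of 5%, while 0.197% of all genes did (edgeR quasi-likelihood test, 49 of 24862), and 6 of 7 had a negative log2 fold change. Slc6a5 ran from 205.2 to 364.9 CPM (median 294.5) in males and from 236.5 to 406.8 CPM (median 326.0) in females. Its log2 fold change was -0.21 (SE 0.122, edgeR adjusted p = 0.577), and the ranges overlapped. Glra1 was -0.20 (SE 0.225, adjusted p = 0.784), with 18.6 to 48.9 CPM (median 30.9) in males and 23.8 to 61.0 CPM (median 36.0) in females.

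Glrb, the subunit that binds gephyrin, ran from 266.9 to 362.7 CPM (median 311.3) in males and from 309.9 to 406.8 CPM (median 330.8) in females. It had the smallest p of the 7 in the exact two-sided permutation test (0.0946, adjusted p = 0.682) and a log2 fold change of -0.13 (SE 0.0664, edgeR adjusted p = 0.538). Slc6a9 ran from 290.2 to 367.6 CPM (median 332.2) in males, Gphn from 62.5 to 72.0 CPM (median 67.8), Glra2 from 11.9 to 14.2 CPM (median 13.7) and Glra3 from 12.7 to 20.7 CPM (median 14.9), all overlapping the females. Slc6a9, Gphn and Glra3 were at -0.06, -0.04 and -0.02, and Glra2 at 0.08.

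Against each female group alone, Slc6a5 was at -0.16 (F1/proestrus) and -0.28 (F2/metestrus), and Glra1 at -0.18 and -0.24. These 2 comparisons share the males.

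With the library series as a term, Slc6a5 reached -0.23 (SE 0.0694, edgeR adjusted p = 0.118) and Glra1 -0.23 (SE 0.114, adjusted p = 0.324), still short of the threshold. Within the first series alone Slc6a5 was -0.10 and within the second -0.38 (adjusted p = 0.261). Markers of other cells were set beside these values. Of 6 motor neuron markers, 6 had a negative log2 fold change in males and none passed the threshold, with a median of -0.59. For Prph (-0.78) and Isl1 (-0.56) the SD exceeded the mean in F1/proestrus (60.2 ± 72.0 and 3.41 ± 4.23 CPM). Chat, Mnx1, Slc5a7 and Slc18a3 ran from -0.83 to -0.38. The summed level of these 6 was 22.9 to 165.5 CPM in males, 33.02 to 321.4 in F1/proestrus and 128.9 to 184.8 in F2/metestrus. The 321.4 CPM was that of F1/proestrus library 5, which was also high in ganglion markers, and the next library of its group was at 190.8 CPM. Of 5 Schwann cell markers, 5 had a positive log2 fold change in males (0.40 to 0.78), and Ncmap passed (0.67, edgeR adjusted p = 0.00654). Their summed level was 1843 to 4502 CPM in males (median 2387), 1237 to 2593 in F1/proestrus (median 1487) and 1276 to 1877 in F2/metestrus (median 1634). Of the 6 markers of excitatory dorsal horn neurons, only Grp passed, higher in males (0.92, edgeR adjusted p = 0.00539). The median of the 6 was 0.10 and the lowest -0.04. Summed over the 6, males had 364.4 to 399.9 CPM, F1/proestrus 337.5 to 419.6 and F2/metestrus 340.3 to 370.9. The part of these markers in the values of the 7 genes was not tested. In pieces of tissue, fewer cells of a type and less RNA per cell cannot be told apart.

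**Figure D2:**
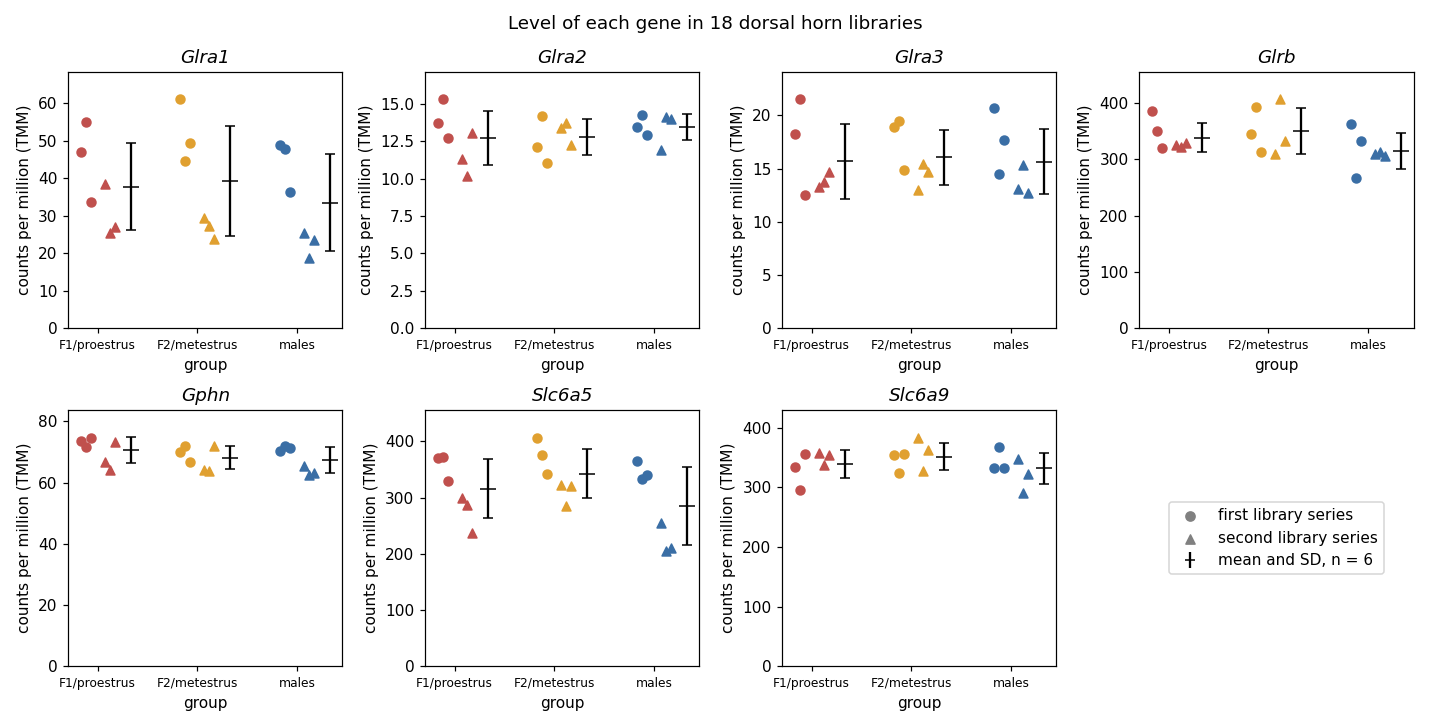
TMM-normalized CPM (vertical axis, from 0) of each gene by group (horizontal axis), one point per library, circles for the first library series and triangles for the second, with the mean and SD of 6 libraries. The groups overlap for all 7 genes, and for Slc6a5 every triangle lies below every circle.

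The largest differences among these genes were not between the groups but between the library series. With the group as a term, 26.9% of all genes differed between the second and the first series (6774 of 25180, edgeR quasi-likelihood test), and 14.2% were higher and 12.7% lower in the second. Of the 7 genes, 4 were called and all 4 were lower: Glra1, Slc6a5, Glra3 and Gphn. The series hold equal numbers of each group.

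Glra1 ran from 33.6 to 61.0 CPM (median 47.9) in the first series and from 18.6 to 38.4 CPM (median 25.4) in the second. Its log2 fold change was -0.84 (SE 0.110, edgeR adjusted p = 1.67e-05), and the 2 ranges overlapped. Slc6a5 ran from 329.1 to 406.8 CPM (median 364.9) and from 205.2 to 322.9 CPM (median 285.5). Its log2 fold change was -0.43 (SE 0.0626, edgeR adjusted p = 5.17e-05). It was the only one of the 7 genes whose 2 sets of libraries did not overlap, as was so for 4.02% of all genes.

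Glra3 fell by 0.33 on the log2 scale (SE 0.0900, edgeR adjusted p = 0.00950), from 17.6 ± 3.04 to 13.98 ± 1.05 CPM (SD, n = 9). Gphn fell by 0.11 (SE 0.0351, adjusted p = 0.0288), from 71.4 ± 2.25 to 66.2 ± 3.93 CPM, and this call was lost without the male library 6 (adjusted p = 0.0545), the F1/proestrus library 3 (0.0572) or 4 (0.0542), or the F2/metestrus library 5 (0.0504). Glra2 (-0.07), Glrb (-0.05) and Slc6a9 (0.02) did not pass the test. The Glra1 share of the alpha subunits was 75.8% ± 3.25 in the first series and 65.9% ± 5.43 in the second (SD, n = 9), and the ratio of Slc6a9 to Slc6a5 was 1.33 ± 0.149 and 1.81 ± 0.222.

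The same order held for Glra1 and Slc6a5 in each group. In F1/proestrus, Glra1 was at 47.0, 54.9 and 33.6 CPM in the first series and at 38.4, 25.2 and 26.9 in the second. In F2/metestrus it was at 61.05, 44.6 and 49.5 and then at 29.3, 27.2 and 23.8, and in males at 48.9, 47.9 and 36.4 and then at 25.4, 18.6 and 23.4. In F2/metestrus and males the 2 sets did not overlap, whereas in F1/proestrus the library 4 of the second series exceeded the library 3 of the first. Slc6a5 in males was at 364.9, 333.4 and 339.5 CPM in the first series and at 255.7, 205.2 and 210.6 in the second.

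In single groups, with 3 libraries against 3, the edgeR test called Glra1 in F2/metestrus (-0.95, adjusted p = 0.00488) and in males (-0.98, adjusted p = 0.00831), and Slc6a5 in males (-0.63, adjusted p = 0.00765). None was called in F1/proestrus, where Glra1 was -0.58 (adjusted p = 0.167). The share of all genes called was 0.314% in F1/proestrus, 3.23% in F2/metestrus and 4.90% in males. A test of the difference itself, series by sex, called 0% of all genes (edgeR, 0 of 26075 genes, 1238 at an unadjusted p under 0.05) and none of the 7, with Slc6a5 at -0.29 (unadjusted p = 0.0302, adjusted p = 0.970).

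Base composition moved with the series over all genes. The median log2 fold change was -0.12 in the lowest of 10 equal bins of genes by GC content and 0.12 in the highest, and -0.17 in the highest of 10 bins by exon length. Glra3 (35.2% GC, 9208 exon bases) belonged to the lowest bin by GC and the highest by length. Glrb (40.8% GC) belonged to the same lowest bin by GC, and it was at -0.05 and not called. Glra1 (52.7% GC, 2414 exon bases) belonged to bins with medians of 0.04 and 0.07, and Slc6a5 (48.2% GC, 7203 exon bases) to bins with medians of -0.02 and -0.07. For Gphn (48.1% GC) the bin medians were -0.02 and 0.05, for Glra2 (41.3% GC) -0.06 and 0.05, and for Slc6a9 (57.0% GC) 0.09 and -0.03. Of 6 markers of excitatory dorsal horn neurons, 4 were higher in the second series and none lower, against 14.2% and 12.7% of all genes, with a median of 0.28, and no motor neuron marker was called. The part of these in the differences was not tested.

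**Figure D3:**
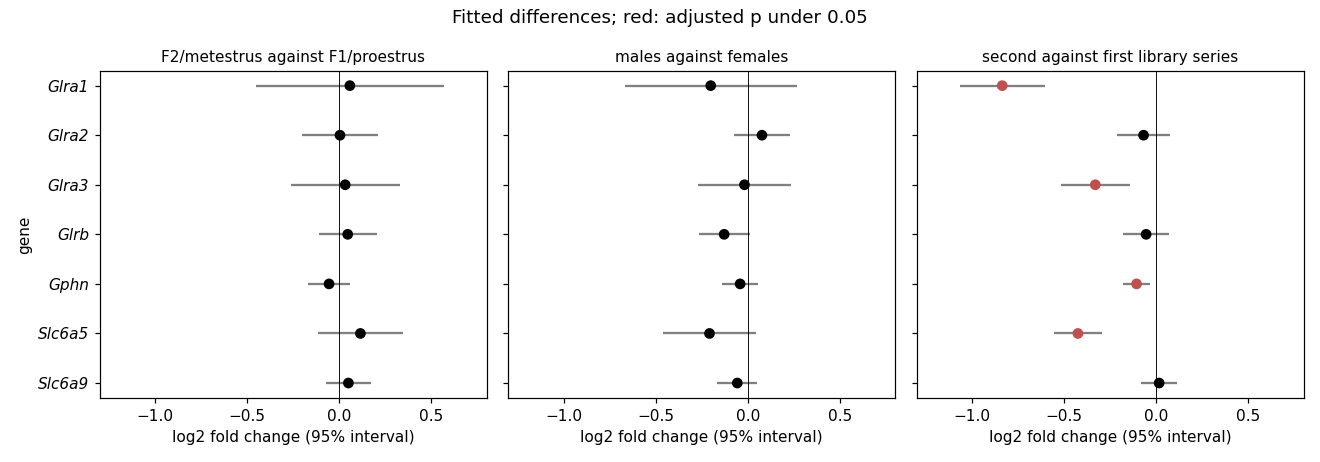
Fitted log2 fold change of each gene with its 95% interval (horizontal axis) in the 3 comparisons, red where the edgeR adjusted p was under the FDR of 5%. Red points appear only between the library series, where Glra1 lies at -0.84.

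Over the 18 libraries, 5 of 21 pairs of these genes correlated past an adjusted p under 0.05 (Pearson, 100000 permutations, adjusted over 21 pairs). Part of this followed the library series, and with the mean of each series subtracted 3 pairs were called. Glra1 and Slc6a5 gave r = 0.86 (rho = 0.88, permutation p = 1e-05, the smallest that the permutations can give), with r = 0.74 within the first series and 0.61 within the second (n = 9 each). With the series means removed it was 0.60 (permutation p = 0.00586, adjusted p = 0.0446), and 0.43 without the 2 farthest libraries.

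Glra3 and Glrb gave r = 0.61 (rho = 0.77, permutation p = 0.0061, adjusted p = 0.0416), with 0.69 and 0.64 within the 2 series and 0.62 without the 2 farthest libraries. Glra3 and Slc6a9 ran in opposite directions, with r = -0.77 in the first series, -0.41 in the second and -0.57 with the series means removed (permutation p = 0.00611, adjusted p = 0.0446), or -0.53 when the 2 farthest libraries were also left out. The pooled value of that pair (r = -0.48) did not pass after adjustment (permutation p = 0.0461, adjusted p = 0.138). The pairs Glra1 with Glra3, Glra3 with Slc6a5 and Gphn with Slc6a5 were called when pooled, but with the series means removed their r dropped to 0.24, 0.23 and 0.17.

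**Figure D4:**
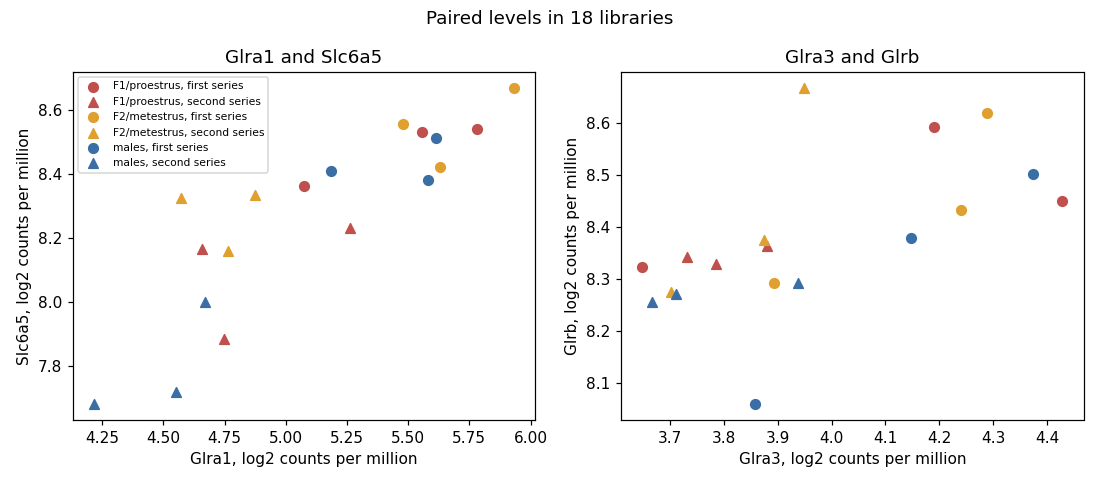
Log2 CPM of Glra1 against Slc6a5 (left) and of Glra3 against Glrb (right) in the 18 libraries, colored by group, circles for the first library series and triangles for the second. In the left plot the series form an upper right and a lower left set, and r is 0.74 and 0.61 within them.

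Of 35 relations between these genes and scores of cell type markers, 3 were called by Pearson's r, none by Spearman's rho, and 1 with the series means removed. That one was Slc6a9 with ventral interneuron markers. With the series means removed it gave r = 0.76 (rho = 0.60, permutation p = 0.00094, adjusted p = 0.0329). Pooled, its r was 0.75 (rho = 0.57, permutation p = 0.00033, adjusted p = 0.00578), and 0.54 without the 2 farthest libraries. Within the 2 series its r was 0.73 and 0.79. Slc6a5 ran opposite to the markers of excitatory dorsal horn neurons (r = -0.78, rho = -0.66, permutation p = 0.00012, adjusted p = 0.0042). Within the series its r was -0.34 and -0.85, and with the series means removed it was no longer called (r = -0.70, adjusted p = 0.0532). Without the 2 farthest libraries its pooled r was -0.60. With the markers of glycine release and inhibitory neurons, Slc6a5 gave r = -0.30 (permutation test, adjusted p = 0.523). Within the series that r was -0.32 and -0.28. Slc6a9 with motor neuron markers gave r = 0.65 (rho = 0.42, permutation p = 0.00393, adjusted p = 0.0459), which rested on 2 libraries, since r was 0.13 without them. Astrocyte markers gave r = 0.20 with Slc6a9.

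The genes most alike in pattern were sought among 17759 others by Pearson's r of log2 CPM over 18 libraries with the series means removed, as a description. The nearest to Glra1 was Gm12236 (r = 0.97), the antisense gene that shares its exon bases, followed by Pex5l (0.94). Gm17114, at 0.93 the second for Slc6a9, also shares exon bases with it, and Ephb1 was the first (0.93). Nearest to Glrb were Zfp942 (0.97) and Fyttd1 (0.96), to Slc6a5 Cpeb3 (0.94) and Synj1 (0.92), and among those to Glra3 was Psip1 (0.89). For Gphn they were F420014N23Rik and Gad1, which encodes a GABA-synthesizing enzyme (both 0.74), and for Glra2 Dnah14 (0.84) and Rwdd2a (0.80). The 2 values of Gphn came mostly from the second series, with r = 0.88 and 0.93 there and 0.33 and 0.36 in the first.

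The other genes of the pathway were counted on a list of 43, of which 42 were tested. None passed between the female groups or between the sexes, where the lowest adjusted p was 0.504 (edgeR). The median log2 fold change was -0.01 between the female groups and 0.01 between the sexes, against 0.00 over all genes in both. Between the library series 16 of 42 passed, 7 higher and 9 lower, where 26.9% of all genes passed, 14.2% higher and 12.7% lower.

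Among 7 genes of glycine release and inhibitory neurons, the differences between males and females ran from -0.06 (Gad1) and -0.05 (Gad2), which encode GABA-synthesizing enzymes, to 0.08 (Lhx1) and 0.21 (Gbx1), and none was called between the series. Slc32a1, the vesicular carrier of glycine and GABA, was at 48.9 ± 4.34 CPM in males, 46.6 ± 4.66 in F1/proestrus and 47.8 ± 2.72 in F2/metestrus (SD, n = 6). Of 10 gephyrin partners, those between males and females ran from -0.13 (Slitrk3, a synaptic adhesion protein) and -0.12 (Insyn2a) to 0.19 (Nlgn2, neuroligin 2) and 0.29 (Insyn1). Between the series 5 of these 10 fell and 3 rose, against 12.7% and 14.2% of all genes: Dynll2, a dynein light chain, was at -0.57 (edgeR adjusted p = 4.21e-05) and Insyn1 at 0.63 (adjusted p = 5.15e-05).

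Of the 7 enzymes of glycine synthesis and cleavage, none passed the test between the sexes, with log2 fold changes from -0.17 (Shmt1) and -0.15 (Gldc, of the glycine cleavage system) to 0.02 (Gcsh) and 0.13 (Gcat). Among the other glycine carriers, 6 of 7 were tested and ran from -0.28 (Slc6a20a) and -0.10 (Slc38a2) to 0.07 (Slc25a38) and 0.16 (Slc38a5). Of the 4 enzymes that make or use the molybdenum cofactor, whose synthesis also needs gephyrin, Mocs2 and Suox were at 0.01 and 0.02 and Mocs1 and Mocs3 at 0.07 and 0.09.

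On the prostaglandin route to the alpha3 receptor, Ptgs2, the inducible cyclooxygenase, was at 1.20 ± 0.348 CPM in males, 1.52 ± 0.512 in F1/proestrus and 1.41 ± 0.210 in F2/metestrus (SD, n = 6), with -0.29 between males and females (edgeR adjusted p = 0.603). Ptger2, the receptor of prostaglandin E2 on this route, was at 0.21 (adjusted p = 0.513), Ptges at 0.13 and Prkacb, a catalytic subunit of protein kinase A, at -0.12. Glra4, the fourth alpha subunit, was low, at 1.39 ± 0.284 CPM in males, 1.18 ± 0.251 in F1/proestrus and 1.06 ± 0.239 in F2/metestrus, with 0.31 between males and females (adjusted p = 0.504). Slc12a5 and Slc12a2, which set the chloride gradient the receptor uses, were at -0.06 and -0.15 between the sexes, and both fell between the series, by 0.26 and 0.31.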

How the data were processed

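RNA of 18 ipsilateral DHSC samples was sequenced. The authors mapped reads to mm10 with Subread. The submitters' processing notes give its version as 2.0.3, whereas the methods of the study name another version. Raw counts per gene on exons, made with featureCounts, were deposited. The protocols name different library kits, and the strand setting is not given in the sources used here. A deposited table of the authors' own comparison (fold changes and p-values) was used for gene symbols alone.

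Counts were filtered with filterByExpr (minimum count 10, minimum total 15), scaled with TMM and tested with edgeR 4.0.16 (quasi-likelihood test, R 4.3.3) at an FDR of 5% with Benjamini-Hochberg adjustment over all genes tested. One fit held the 12 females (F2/metestrus against F1/proestrus) and another held all 18 samples (males against the pooled females). No source says that a replicate number marks a shared litter or day, and same-numbered libraries did not all deviate together (2 to 4 of 6 correlations above 0.1). These correlations still held the library series, which same-numbered libraries share. With the series removed, the highest of them was 0.13. DESeq2 1.42.0 and limma 3.58.1 (voom) were alternatives. TPM used GENCODE exon lengths, and log2 CPM a prior count of 2. All columns of the count table were used. Genes named outside the 7 were the 2 highest and 2 lowest of each list between the sexes, those called and the 2 most alike to each of the 7. A few genes besides, such as Slc32a1 and Dynll2, were picked after their values were seen. Some genes that the rule names are not reported here. On simulated data the edgeR test recovered 75.1% of tested genes changed 2-fold between the female groups, 83.8% between the sexes and 81.2% between the series, and of those changed 1.5-fold 57.4%, 62.8% and 71.2%. From 4.52% to 7.38% of its calls there were false. The simulated counts held no difference between the library series besides the changes put in, unlike the real ones. The 7 genes, the lists and the series comparison were chosen with earlier results of these data known. The study counts its samples as animals, 6 per group.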

Additional observations from a re-analysis of the deposited data

Results flagged for a closer look

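The lowest Slc6a9 value of F1/proestrus, 295.6 CPM in library 2, lay apart from the other 5 libraries of its group, of which the next was at 334.8 CPM. Its gap was 0.635 of the group's whole range, above Dixon's critical value of 0.625 for 6 samples. Of 36 groups of values tested in this way it was the only one, and chance alone flags about 1 in 20.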

How the results depend on the processing

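None of the 7 genes was called between the female groups in any of 22 alternatives, or between the sexes in any of 30, with a smallest adjusted p of 0.107. The lowest count of any of the 7 genes in a library was 879. Between the sexes the count of all genes was 31 with at least 10 counts in every sample, 158 by DESeq2, 112 with the replicate block, 133 with the library series as covariate, 16 and 13 in the first and second series alone, 13 against F1/proestrus alone, 22 against F2/metestrus alone, and 25 (without male library 5) to 77 (without F1/proestrus library 5) leaving out 1 library. Between the female groups DESeq2 gave 2, and the replicate block 0. The replicate numbers were not shown to pair the animals, and the block called none of the 7 genes.

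Small differences changed sign. Between the female groups Glra2 was -0.011 by voom and -0.17 in the first series, Glrb -0.011 in the first series and Glra1 -0.17 in the second, and leaving out 1 library gave -0.11 to 0.20 for Glra1, -0.051 to 0.066 for Glra2 and -0.032 to 0.15 for Glra3. Between the sexes Glra3 was 0.0011 by voom and -0.13 to 0.025 leaving out 1 library, and Slc6a9 was 0.017 in the first series. Between the library series 0, 1 and 2 of the 7 genes and 77, 781 and 1198 of all genes were called within F1/proestrus, F2/metestrus and males, which have fewer samples. There Glra2 was 0.073 in F2/metestrus and Slc6a9 -0.11 in males, and leaving out 1 library gave -0.029 to 0.033 for Slc6a9. The series comparisons were chosen after seeing the data. With the series means subtracted, 3 pairs of genes and 1 marker relation were called. Without division by length the Glra1 share was 54.8%, and Glra3 (24.6%) stood above Glra2 (20.6%). The causes were not tested.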
